A study of Rattus norvegicus with 16 samples.

Results

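The comparison described here is that of the amygdala with the dorsal raphe in high responder rats, a line bred for strong locomotor activity in a new environment. Its members are the 8 libraries whose labels name the high responder line, 4 from amygdala and 4 from dorsal raphe, of 16 libraries in the series, and all rows of their tables of mature microRNA (miRNA) counts. The other 8 libraries come from the same 2 regions of the low responder line, 4 from each, and served as the other line for which region differences are set side by side. All rats were 60 days old and no drug or other treatment is named in the labels. Whether the 4 samples of a group are 4 different animals is not said in the labels, and the p-values reflect the spread among the samples as given, which may be technical. Each library was made from a piece of tissue with all its cell types, so that fewer cells of a type and less of an miRNA per cell cannot be told apart.

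The amygdala is a group of forebrain nuclei that links stimuli to fear and reward, and the dorsal raphe is the midbrain nucleus whose serotonin neurons project widely to the forebrain, the amygdala included. An miRNA is a short RNA cut from a hairpin precursor. Either arm of the hairpin (5p or 3p) can be loaded into an Argonaute protein, and it then pairs with messenger RNAs mainly through its seed, the stretch of bases near its 5′ end, which lowers their translation and stability. miRNAs with the same seed can share targets, and several are cut from introns of protein-coding genes.

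The sequences of the miRNAs on which the results turn are shown first, 5′ to 3′, with the seed (bases 2 to 8) in capitals. They are RefSeq's mature sequences for the rat assembly GRCr8, in which 644 of the 722 listed names, 569 of the 639 tested and 70 of the 84 that passed the test had an entry. Among those higher in amygdala are the miRNAs of large difference from 1 host gene (miR-1298, miR-1912-3p and miR-448-3p), the abundant miR-128-3p and miR-139-5p, miR-504, and pairs that share a seed (miR-204-5p with miR-211-5p, miR-221-3p with miR-222-3p). miR-132-3p, also higher, is shown with miR-212-3p, which has its seed and did not pass the test.
miR-1298: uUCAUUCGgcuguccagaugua
miR-1912-3p: cACAGAACaugcagugaga
miR-448-3p: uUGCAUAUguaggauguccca
miR-128-3p: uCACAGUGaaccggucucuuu
miR-139-5p: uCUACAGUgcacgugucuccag
miR-504: aGACCCUGgucugcacucuguc
miR-204-5p: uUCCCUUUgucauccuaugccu
miR-211-5p: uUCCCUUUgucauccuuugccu
miR-221-3p: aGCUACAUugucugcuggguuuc
miR-222-3p: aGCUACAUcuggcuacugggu
miR-132-3p: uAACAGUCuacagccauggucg
miR-212-3p: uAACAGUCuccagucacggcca

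Among those lower in amygdala are miR-653-5p and miR-489-3p of 1 host gene, the pair miR-135a-5p and miR-135b-5p, and miR-10b-5p, miR-96-5p and miR-298-5p. The seed GGCAGUG is shown in its members miR-34a-5p, miR-34c-5p and miR-449a-5p, because their differences have opposite signs. The seed AGCAGCA is shown in miR-195-5p, miR-497-5p and miR-16-5p, because the first pair passed the test and miR-16-5p did not.
miR-653-5p: uUGAAACAuucucuacugaac
miR-489-3p: aUGACAUCacauauauggcagc
miR-135a-5p: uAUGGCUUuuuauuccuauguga
miR-135b-5p: uAUGGCUUuucauuccuauguga
miR-10b-5p: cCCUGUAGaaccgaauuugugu
miR-96-5p: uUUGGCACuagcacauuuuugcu
miR-298-5p: gGCAGAGGagggcuguucuuccc
miR-34a-5p: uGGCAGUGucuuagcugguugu
miR-34c-5p: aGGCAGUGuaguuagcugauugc
miR-449a-5p: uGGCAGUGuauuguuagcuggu
miR-195-5p: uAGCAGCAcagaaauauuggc
miR-497-5p: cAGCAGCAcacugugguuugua
miR-16-5p: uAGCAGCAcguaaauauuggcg

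Some of these pairs are close copies. miR-204-5p and miR-211-5p match at 21 of 22 positions, miR-135a-5p and miR-135b-5p at 22 of 23, and miR-195-5p and miR-16-5p at 19 of 21. miR-221-3p and miR-222-3p match at only 11 of 21 when aligned from the 5′ end, and miR-34a-5p and miR-449a-5p at 15 of 22. The assignment of reads that fit several miRNAs is not given in the sources used, and the separate levels of near-identical members are uncertain. The level of miR-211-5p was 3.92% to 4.44% of that of miR-204-5p in all 8 libraries, a nearly fixed ratio. That of miR-135b-5p was 18.4% to 20% of miR-135a-5p in dorsal raphe and 24.8% to 28.4% in amygdala, ranges that do not overlap.

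The high responder libraries held 1741167 to 6949748 counts, with both extremes in amygdala. Levels are counts per 1000000 (CPM) of library totals that were corrected by edgeR's TMM factors (from a trimmed mean of ratios between libraries), which ran from 0.870 to 1.27. A count of 3, taken as the floor of detection, stood for 0.432 to 1.72 CPM, and this limit covers no other error than that of counting. Some libraries stood apart from their group: the root mean square deviation from the group mean in log2 CPM was 0.968 in amygdala replicate 1 and 0.880 in amygdala replicate 4, against 0.285 to 0.621 in the other 6. In amygdala replicates 1 and 2 and dorsal raphe replicate 1, the 3 shallowest libraries, the 232 miRNAs with a mean under 10 CPM lay above their group means (medians 0.68, 0.60 and 0.71 log2) and the 407 others below (-0.44, -0.20 and -0.24). Amygdala replicates 3 and 4 deviated the other way (-0.50 and -0.80 for the low, 0.34 and 0.30 for the others). The same split was smaller in dorsal raphe replicates 2 to 4, and its part in the region differences was not tested.

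**Figure D1:**
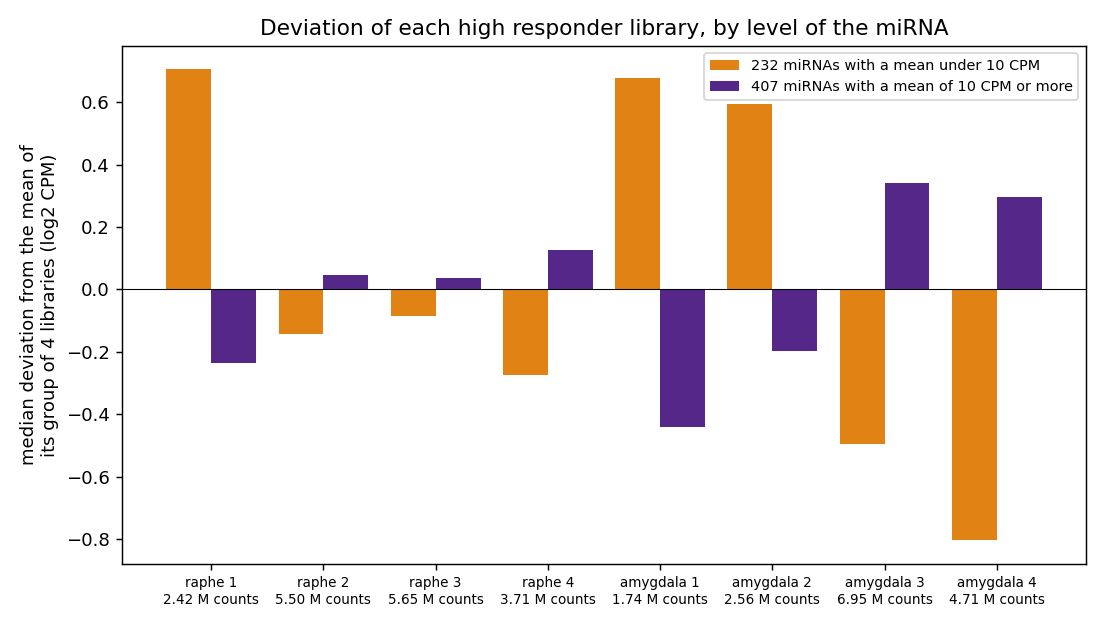
Median deviation of each of the 8 high responder libraries from the mean of its group of 4, in log2 CPM (y axis), by library with its total count (x axis). Orange bars are the 232 miRNAs with a mean under 10 CPM and purple bars the 407 others; the bars of amygdala replicates 1 and 2 and dorsal raphe replicate 1 point the opposite way to those of the other 5 libraries.

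The labels were set against marker miRNAs. miR-10b-5p, encoded among the Hox genes and known from hindbrain, was at 247 to 316 CPM in dorsal raphe and 15.5 to 53.8 CPM in amygdala. The neuron list of cell type markers (18 of 18 tested) summed to 170936 to 216496 CPM in dorsal raphe and 272682 to 300894 CPM in amygdala. Most of that difference was miR-128-3p: without it the other 17 summed to 158508 to 203891 CPM in dorsal raphe and 174865 to 212684 CPM in amygdala, ranges that overlap. The oligodendrocyte list (5 of 5 tested, 0 past the test) summed to 10274 to 12096 and 7113 to 11554 CPM, and the vascular list (6 of 6 tested, 0 past the test) to 43997 to 61021 and 38494 to 49939 CPM. Of the tested markers in these and the other lists, 0 were at 0 in all 8 libraries, which the filter on low counts nearly fixes beforehand. Listed markers that it removed were not checked. Tested were 7 of 8 for muscle, 9 of 11 for epithelial and endocrine and 3 of 4 for hindbrain Hox.

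Between amygdala and dorsal raphe of high responders, 84 of the 639 miRNAs tested passed an adjusted p of 0.05 (13.1%). The test was edgeR's quasi-likelihood test with Benjamini-Hochberg adjustment over all 639, in 1 model of all 16 libraries. Of the 84, 42 rose in amygdala relative to dorsal raphe (6.57%) and 42 fell (6.57%), and 77 of them differed by more than 2-fold (40 higher, 37 lower). The 4 amygdala values lay wholly above the 4 dorsal raphe values for 40 of the 42 higher miRNAs, against 71 of all 639 tested (11.1%). They lay wholly below for 40 of the 42 lower ones, against 79 of all 639 (12.4%). The exceptions were miR-22-3p and miR-3065-3p among the higher and miR-296-5p and miR-490-5p among the lower. The calls were picked by a test of these same values, so their separation is no further support for them.

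The median log2 fold change of all 639 miRNAs was 0.08. Scaling by library totals in place of TMM factors moved this median to -0.11 and the calls to 40 higher and 71 lower. Of the 84 calls, 54 (30 higher, 24 lower) were kept without each of the 8 libraries in turn, and 30 were lost without at least 1. Without amygdala replicates 1 and 4, both far from their group, 28 higher and 24 lower were called and 51 of the 84 were kept. With only the 5 libraries of over 3000000 counts, 31 higher and 19 lower were called and 44 of the 84 were kept. In both, 0 of the 84 changed sign. In the 3 classes of higher mean level, 10 to 100, 100 to 1000 and over 1000 CPM, 18.0%, 20.1% and 15.8% of miRNAs passed, with 14, 11 and 11 higher and 18, 16 and 4 lower. In the class under 10 CPM 4.31% of 232 passed, 6 higher and 4 lower, and the median log2 fold change there was 0.57 with a median SE of 0.61.

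**Figure D2:**
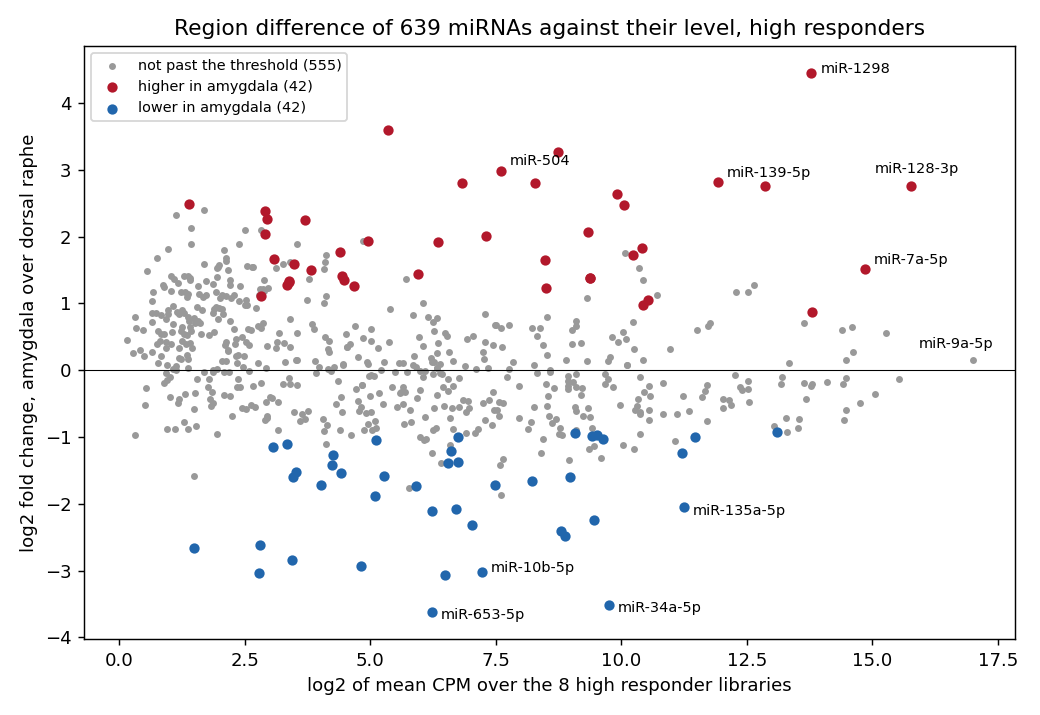
Log2 fold change of amygdala over dorsal raphe (y axis) against the log2 of the mean CPM over the 8 high responder libraries (x axis), 1 point for each of the 639 miRNAs tested. Red points are the 42 higher, blue points the 42 lower at an adjusted p of 0.05, and grey points the 555 others; below about 10 CPM most grey points lie above 0, and the median of all 232 there is 0.57.

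The largest rise was that of miR-1298, the most abundant miRNA encoded in the span of Htr2c, the gene of the serotonin 2C receptor. It was at 936, 1288, 719.8 and 1983 CPM in dorsal raphe replicates 1 to 4 and at 25009, 34624, 25074 and 23003 CPM in amygdala replicates 1 to 4, a 21.9-fold difference (log2 fold change 4.45, SE 0.77, adjusted p = 7.8e-04). Every amygdala library lay far above every dorsal raphe library. miR-448-3p, cut from another hairpin in the same gene, was at 67.9, 79, 64.4 and 109.8 CPM in dorsal raphe and 365, 951, 867 and 899 CPM in amygdala (log2 fold change 3.26, SE 0.67, adjusted p = 0.00262). miR-1912-3p was at 7.51, 5.78, 5.44 and 6.41 CPM in dorsal raphe and 27.1, 75.8, 96 and 103 CPM in amygdala (log2 fold change 3.60, SE 0.66, adjusted p = 0.00118). Amygdala replicate 1 was the lowest amygdala library for both, and neither overlapped with dorsal raphe.

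The Htr2c list held 7 tested miRNAs, of which these 3 rose and 0 fell (6.57% of all 639 rose). Its median log2 fold change was 0.91 against 0.08 for all miRNAs. The 4 others did not pass and differed in sign. miR-448-5p, the other arm of the miR-448 hairpin, was at 33.2 ± 7.67 CPM in dorsal raphe and 21.6 ± 8.77 CPM in amygdala (mean ± SD, n = 4; log2 fold change -0.60). The values were -0.76 for miR-764-3p, 0.76 for miR-764-5p and 0.91 for miR-1912-5p, all less abundant than miR-448-5p in each region. A further miRNA of the gene span, miR-3552, was not in the list. It was tested and did not pass. miR-1298 lies at chrX:115556987-115557008 and miR-448-3p at chrX:115642026-115642046 on the + strand of GRCr8.

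miR-139 is encoded in the span of Pde2a, a phosphodiesterase gene of forebrain neurons, and both of its arms rose. miR-139-5p was at 714, 885, 1149 and 1119 CPM in dorsal raphe and 5535, 6170.5, 7709 and 7704 CPM in amygdala, a 7.01-fold difference (log2 fold change 2.81, SE 0.32, adjusted p = 1.3e-05). Its other arm miR-139-3p was at 22.5, 24.6, 28.5 and 39 CPM in dorsal raphe and 286, 156, 180.0 and 176 CPM in amygdala (log2 fold change 2.80, SE 0.49, adjusted p = 8.5e-04). The groups did not overlap for either arm, and the arms had nearly equal fold changes at very different levels.

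miR-128-3p, a neuronal miRNA that limits excitability, had the largest difference in CPM of the miRNAs named. It made up 1.57% of the counts in dorsal raphe and 9.54% in amygdala. Its level was 12428, 12605, 20159.6 and 12168 CPM in dorsal raphe and 115033, 95064, 89234 and 88067 CPM in amygdala (log2 fold change 2.76, SE 0.32, adjusted p = 1.6e-05). The 4 amygdala libraries lay close together and dorsal raphe replicate 3 was the highest of its group. The passenger arms of its 2 precursors, miR-128-1-5p in the span of R3hdm1 and miR-128-2-5p in the span of Arpp21, also rose (log2 fold change 2.27, SE 0.36, and log2 fold change 2.25, SE 0.50), from means of 2.65 ± 1.21 and 4.53 ± 1.76 CPM (± SD, n = 4). These 3 were among the 5 of 24 tested neuron miRNAs that rose (6.57% of all 639 rose), with 0 that fell and a median of 0.30. The other members that rose were miR-137-5p (log2 fold change 1.33, SE 0.31) and miR-218a-2-3p (log2 fold change 1.28, SE 0.29). Both are rare arms, at means of 10.4 and 10.2 CPM. The abundant arms miR-137-3p (1054 CPM) and miR-218a-5p (21573 CPM) had log2 fold changes of 0.58 and 0.60 and did not pass. The most abundant neuron miRNA, miR-9a-5p, was at 124283 ± 16277 CPM in dorsal raphe and 137599 ± 7754 CPM in amygdala and did not pass (log2 fold change 0.15). Negative log2 fold changes that did not pass were those of miR-124-3p (-0.92), miR-124-5p (-0.60) and miR-9a-3p (-0.86). Of the 17 markers summed above without miR-128-3p, these 3 were the negative ones. Among the positive ones, miR-129-5p (1.27) did not pass.

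miR-504, encoded in the span of Fgf13, was at 31.7, 45, 43.7 and 52.9 CPM in dorsal raphe and 485, 323, 297 and 269 CPM in amygdala (log2 fold change 2.99, SE 0.48, adjusted p = 4.5e-04). Amygdala replicate 1 was the highest library, and the groups were far apart.

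miR-221 and miR-222, X-linked neighbours that share the seed GCUACAU and are known as regulators of cell cycle inhibitors, rose in all 4 of their tested arms (median 2.43). miR-222-3p was at 285, 284, 324 and 394 CPM in dorsal raphe and 1464, 1289.9, 2038 and 2382 CPM in amygdala, the smallest p of all miRNAs that rose (log2 fold change 2.48, SE 0.26, adjusted p = 8.1e-06). miR-221-3p was at 218, 294, 241 and 323 CPM in dorsal raphe and 457, 898, 2206 and 3103 CPM in amygdala (log2 fold change 2.63, SE 0.54, adjusted p = 0.00262). The amygdala libraries spread more for miR-221-3p than for miR-222-3p, with replicates 1 and 2 below replicates 3 and 4 in each, and none reached down to dorsal raphe. The other arms had log2 fold changes of 2.01 (miR-221-5p) and 2.38 (miR-222-5p, 7.06 to 16 CPM in amygdala). miR-222-3p lies at chrX:6022682-6022702 and miR-221-3p at chrX:6023246-6023268, on the + strand of GRCr8.

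miR-204-5p, of the Trpm3 gene span and abundant in choroid plexus epithelium, was at 1452, 1706, 2752 and 1712 CPM in dorsal raphe and 7832, 13999.7, 13429 and 16331 CPM in amygdala (log2 fold change 2.76, SE 0.51, adjusted p = 0.00133). The near copy miR-211-5p, of the Trpm1 gene span, was at 60.0, 73.6, 110.2 and 68.8 CPM in dorsal raphe and 325, 616, 597 and 641 CPM in amygdala (log2 fold change 2.80, SE 0.49, adjusted p = 8.5e-04). Both were highest in dorsal raphe in replicate 3 and lowest in amygdala in replicate 1, with no overlap. The other arm, miR-204-3p, which is not a copy of miR-211, rose as well (21.2 to 46.3 CPM in dorsal raphe, 109 to 142 CPM in amygdala; log2 fold change 1.92, SE 0.41). In the list of choroid plexus and ciliated-cell miRNAs 4 of 12 tested rose, these 3 and miR-449a-5p, and 0 fell (median 1.51). Of all 639 miRNAs 6.57% rose and 6.57% fell. The summed level of the list was 4077 to 7141 CPM in dorsal raphe and 12257 to 29011 CPM in amygdala. The part of choroid plexus tissue in the difference was not tested.

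miR-132 and miR-212 come from neighbouring hairpins whose transcription is induced by neuronal activity through CREB. miR-132-3p was at 453, 591, 668 and 687 CPM in dorsal raphe and 1552, 1889, 2395 and 2659 CPM in amygdala (log2 fold change 1.82, SE 0.25, adjusted p = 8.8e-05). miR-212-5p was at 211, 250.2, 231 and 311 CPM in dorsal raphe and 1206, 907, 934 and 1154 CPM in amygdala (log2 fold change 2.07, SE 0.31, adjusted p = 2.5e-04). All amygdala libraries were above all dorsal raphe libraries in both. The other arms did not pass, with log2 fold changes of 1.13 for miR-132-5p and 0.84 for miR-212-3p (adjusted p = 0.0714 and 0.112), so that 2 of 4 in this list rose.

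miR-7a-5p, abundant in neurosecretory neurons, was at 13306, 14785, 15005 and 18149 CPM in dorsal raphe and 45035, 45268, 45662 and 38226 CPM in amygdala (log2 fold change 1.51, SE 0.39, adjusted p = 0.0136). In the miR-7 list 1 of 4 tested passed, miR-7a-5p itself. Its near copy miR-7b, which matches at 22 of 23 positions, had a log2 fold change of 0.71 (SE 0.40). The level of miR-7b was 16% to 18.0% of that of miR-7a-5p in dorsal raphe and 9.18% to 10.8% in amygdala.

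Epithelial miRNAs of the miR-200 family were rare. miR-200b-3p was at 1.98 to 6.85 CPM in dorsal raphe and 10.4 to 17 CPM in amygdala, a rise without overlap (log2 fold change 1.67, SE 0.38). miR-429 (0 to 1.63 CPM in dorsal raphe, 3.06 to 5.86 CPM in amygdala; log2 fold change 2.48, SE 0.67) lost its call without dorsal raphe replicate 2 (adjusted p = 0.0656), and miR-200a-3p (log2 fold change 1.32) lost its call without amygdala replicate 3 or dorsal raphe replicates 2 or 3 (adjusted p = 0.0762 to 0.0981). In the epithelial and endocrine list 3 of 9 tested rose (6.57% of all 639 rose) and 0 fell (median 1.32). Most of its members had a mean under 10 CPM, a class in which the median of all 232 miRNAs was 0.57. The endocrine miR-375-3p, its most abundant member, was at 139 to 293 CPM in dorsal raphe and 186 to 329 CPM in amygdala, ranges that overlap.

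Further miRNAs that rose and kept their call without each library in turn were miR-370-3p, miR-493-3p, miR-543-3p and miR-410-5p of the imprinted Dlk1-Dio3 region, miR-455-5p, miR-935 of the Cacng8 gene span, miR-92b-5p and miR-320-5p. miR-370-3p was at 489.5, 555, 533 and 656 CPM in dorsal raphe and 3092, 1762, 1345 and 1219 CPM in amygdala (log2 fold change 1.73, SE 0.38, adjusted p = 0.00453), and amygdala replicate 1 was far above the other 3. The others of these had log2 fold changes of 1.44 for miR-493-3p, 0.98 for miR-543-3p, 1.60 for miR-410-5p, 1.23 for miR-455-5p, 1.26 for miR-935, 1.5 for miR-92b-5p and 1.41 for miR-320-5p. With only the 5 libraries of over 3000000 counts, 5 of these 8 did not pass: miR-370-3p (log2 fold change 1.16, adjusted p = 0.0977), miR-493-3p (0.91, adjusted p = 0.158), miR-543-3p (0.84, adjusted p = 0.099), miR-410-5p (1.31, adjusted p = 0.0683) and miR-320-5p (0.92, adjusted p = 0.263). Nor did miR-7a-5p (1.41, adjusted p = 0.099). In this group miR-410-5p, miR-320-5p and miR-92b-5p are the rarer arms of their hairpins (means 11.2, 21.8 and 14.1 CPM). Their other arms, at 907, 547 and 874 CPM, had log2 fold changes of -0.26, -0.06 and 0.20 and did not pass. By contrast, miR-370-3p, miR-543-3p and miR-455-5p are the more abundant arms.

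The other 9 of the 42 that rose lost their calls without at least 1 library. miR-344a-3p (log2 fold change 1.05) lost its call without amygdala replicate 3 (adjusted p = 0.0515), and miR-344b-1-3p and miR-344b-2-3p, whose counts are identical in every library (1.37), did so without dorsal raphe replicate 1 (adjusted p = 0.0587). These 2 are 1 measurement listed under 2 names, and the 84 calls are 83 distinct measurements. miR-347 (1.94) lost its call without amygdala replicates 2 or 3 or dorsal raphe replicates 1, 2 or 3 (adjusted p = 0.0688 to 0.0952). miR-378b (1.35) did so without dorsal raphe replicates 2 or 4 (adjusted p = 0.057 to 0.0644), and miR-483-5p of the Igf2 gene span (1.11) did so without amygdala replicate 3 or dorsal raphe replicate 1 (adjusted p = 0.0595 to 0.0952). The abundant miR-22-3p (7591 to 12174 CPM in dorsal raphe, 10552 to 24739 CPM in amygdala, 0.87) was called with overlapping groups and lost its call without amygdala replicates 3 or 4 or dorsal raphe replicates 1, 2 or 4 (adjusted p = 0.0505 to 0.128). miR-3065-3p (2.04) lost its call without amygdala replicates 1 or 2 or dorsal raphe replicates 2, 3 or 4 (adjusted p = 0.0919 to 0.23), and miR-674-3p (1.64) did so without amygdala replicates 1, 2 or 3 or dorsal raphe replicates 1, 2, 3 or 4 (adjusted p = 0.0567 to 0.114). Of these 9, miR-344a-3p and miR-22-3p alone passed with only the 5 deepest libraries.

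The largest fall was that of miR-653-5p, encoded with miR-489 in the span of Calcr, the gene of the calcitonin receptor. It was at 111, 155, 123 and 166 CPM in dorsal raphe and 10.6, 12.2, 13.4 and 8.47 CPM in amygdala, 12.3-fold lower (log2 fold change -3.63, SE 0.35, adjusted p = 3.5e-06). This was also the smallest adjusted p of all 639 miRNAs. All 4 arms of the 2 hairpins fell (median -2.86). miR-653-3p had a log2 fold change of -3.04, miR-489-3p of -2.62 and miR-489-5p of -2.67, from 12.5 ± 2.24, 11.9 ± 1.58 and 4.94 ± 1.91 CPM in dorsal raphe (mean ± SD, n = 4). These 3 were within a few CPM of the floor in amygdala, so their fold changes rest on few counts and are uncertain. miR-653-5p lies at chr4:32647455-32647475 and miR-489-3p at chr4:32648063-32648084, on the - strand of GRCr8.

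miR-34a-5p, a target of p53 that is also expressed in neurons, was at 1259, 1435, 1958 and 1720.0 CPM in dorsal raphe and 34.1, 58.8, 227 and 236 CPM in amygdala (log2 fold change -3.51, SE 0.57, adjusted p = 4.6e-04). Amygdala replicates 1 and 2 were below replicates 3 and 4, and the highest of the 4 was far below dorsal raphe. Other miRNAs with its seed GGCAGUG, known from ciliated and choroid plexus epithelium, had positive log2 fold changes. miR-449a-5p was at 11.1, 8.5, 9.72 and 9.24 CPM in dorsal raphe and 14.9, 27.4, 24.3 and 64.5 CPM in amygdala (log2 fold change 1.78, SE 0.55, adjusted p = 0.0417), but it lost its call without amygdala replicate 4 or dorsal raphe replicates 1, 2, 3 or 4 (adjusted p = 0.0595 to 0.0825). miR-34c-5p was at 1946, 3422, 2410.1 and 4557 CPM in dorsal raphe and 3549.6, 8056, 7463 and 8738 CPM in amygdala and did not pass (log2 fold change 1.17, adjusted p = 0.224). miR-34b-5p and miR-449c-5p had log2 fold changes of 1.75 and 1.54 and did not pass either. This was the only seed with calls in both directions. In the whole miR-34 and miR-449 list, which shares its members other than miR-34a with the choroid plexus list, 1 of 10 tested rose and 1 fell (median 1.17).

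Among the striated muscle miRNAs 4 of 10 tested fell (6.57% of all 639 fell) and 0 rose (median -1.28). Their summed level was 1840.3 to 2236 CPM in dorsal raphe and 473 to 794 CPM in amygdala. miR-1-3p, the main miRNA of striated muscle, was at 1079.9, 1223, 972 and 1367 CPM in dorsal raphe and 280.0, 198, 293 and 206 CPM in amygdala (log2 fold change -2.25, SE 0.40, adjusted p = 9.5e-04). miR-133a-3p, from the same cluster, was at 139.7, 138, 186 and 179 CPM in dorsal raphe and 14.4, 10.7, 24.5 and 26.4 CPM in amygdala (log2 fold change -3.06, SE 0.36, adjusted p = 1.6e-05). Both separated the regions without overlap. Their near copies miR-206-3p (75.7 to 157 and 19.7 to 45.6 CPM; log2 fold change -2.11, SE 0.49) and miR-133b-3p (10.8 to 29.2 and 0.532 to 3.76 CPM; log2 fold change -2.84, SE 0.47), from another cluster, fell too. miR-1-3p and miR-206-3p match at 19 of 22 positions, and miR-133a-3p and miR-133b-3p at 21 of 22. The other arm of the miR-133b hairpin, miR-133b-5p, had the opposite sign and did not pass (log2 fold change 2.39, mean 3.24 CPM). The arms miR-133a-5p and miR-206-5p had -1.59 and -0.96 (means 2.82 and 3.85 CPM) and did not pass either. miR-133b is also known from midbrain dopamine neurons. The part of any muscle or vessel tissue in these values was not tested. The levels of miR-499-5p, the cardiac and slow-muscle member, were 467 to 708 and 139 to 430.1 CPM, with a log2 fold change of -0.97 that did not pass (adjusted p = 0.151). miR-206-3p did not pass with only the 5 libraries of over 3000000 counts (log2 fold change -1.77, adjusted p = 0.113).

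miR-10b-5p, from the Hoxd4 span in the HoxD cluster, was at 253, 249.6, 316 and 247 CPM in dorsal raphe and 53.8, 27.7, 35.2 and 15.5 CPM in amygdala (log2 fold change -3.02, SE 0.80, adjusted p = 0.016). The groups did not overlap, but the call was lost without amygdala replicate 2 (adjusted p = 0.0542) and with only the 5 deepest libraries (log2 fold change -3.40, adjusted p = 0.0934). In the Hox cluster list 1 of 6 tested passed, miR-10b-5p itself (median -0.40). miR-10a-5p was at 107, 138, 151 and 133 CPM in dorsal raphe and 92.6, 51.7, 63 and 36.7 CPM in amygdala, lower in every amygdala library without passing (log2 fold change -1.12, adjusted p = 0.248). Such a separation was found for 79 of all 639 miRNAs (12.4%).

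miR-96-5p, of the cluster named for its role in sensory organs, was at 31, 66.5, 57.3 and 45.9 CPM in dorsal raphe and 3.73, 5.91, 8.6 and 7.29 CPM in amygdala (log2 fold change -2.93, SE 0.44, adjusted p = 2.5e-04). Its neighbours miR-182 (log2 fold change -1.40, adjusted p = 0.141) and miR-183-5p (-1.77, adjusted p = 0.1) did not pass. Every amygdala library lay below every dorsal raphe library for each, as for 79 of all 639 miRNAs (12.4%). In all, 1 of the 5 tested in this list fell (median -1.40).

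miR-195-5p and miR-497-5p are cut from neighbouring hairpins and share the seed AGCAGCA of the miR-15 and miR-16 family, known for targeting cyclins. miR-195-5p was at 635, 877, 1135 and 544 CPM in dorsal raphe and 41.5, 77.6, 219.9 and 227 CPM in amygdala (log2 fold change -2.49, SE 0.52, adjusted p = 0.00326). miR-497-5p was at 200.1, 261, 260.1 and 153 CPM in dorsal raphe and 29.3, 34, 55.4 and 56.5 CPM in amygdala (log2 fold change -2.31, SE 0.39, adjusted p = 5.4e-04). In both, amygdala replicates 1 and 2 were the lowest libraries and no amygdala library reached the dorsal raphe range. The 3 other tested members of the seed did not pass. miR-16-5p had levels of 1263 to 2251 CPM in dorsal raphe and 199.6 to 1216 CPM in amygdala, with a log2 fold change of -1.17 (SE 0.51, adjusted p = 0.14), and miR-15b-5p and miR-322-5p had -0.87 and -0.57.

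miR-135a-5p, a regulator of the serotonin transporter and of the serotonin 1A receptor, was at 3165, 4292, 3574 and 4548 CPM in dorsal raphe and 399, 764, 1171 and 1418 CPM in amygdala (log2 fold change -2.05, SE 0.40, adjusted p = 0.00186). Its near copy miR-135b-5p was at 613, 858, 658 and 899 CPM in dorsal raphe and 99, 198, 332 and 373 CPM in amygdala (log2 fold change -1.59, SE 0.37, adjusted p = 0.00692). Both were lowest in amygdala replicate 1 and highest there in replicate 4, still below dorsal raphe. In the list of serotonin-linked miRNAs (miR-135 and miR-16) 2 of 6 tested fell (6.57% of all 639 fell) and 0 rose (median -0.76). With only the 5 libraries of over 3000000 counts miR-135b-5p did not pass (log2 fold change -1.17, adjusted p = 0.0838).

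**Figure D3:**
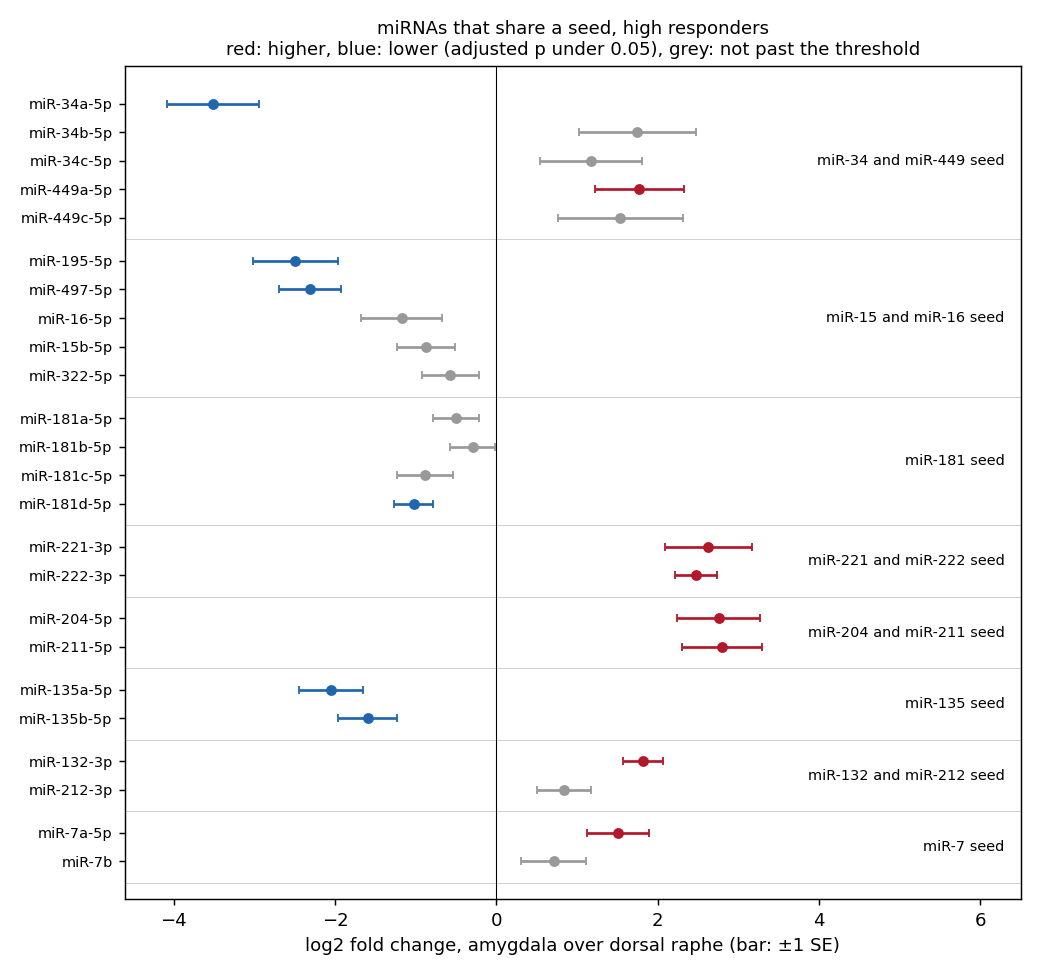
Log2 fold change of amygdala over dorsal raphe in high responders with ±1 SE (x axis) for miRNAs grouped by shared seed (y axis). Red and blue points passed an adjusted p of 0.05 as higher and lower and grey points did not; within the GGCAGUG seed miR-34a-5p lies at -3.51 and miR-449a-5p at 1.78.

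miR-298-5p, cut from a hairpin beside that of miR-296 near the imprinted Gnas locus, was at 120.4, 155, 164 and 237 CPM in dorsal raphe and 18.6, 29.2, 60.2 and 51.3 CPM in amygdala (log2 fold change -2.08, SE 0.35, adjusted p = 5.4e-04). Its other arm miR-298-3p fell with it (log2 fold change -1.59, SE 0.32). miR-296-5p (-1.42) was called with overlapping groups and lost its call without amygdala replicates 1, 2 or 3 or dorsal raphe replicates 2, 3 or 4 (adjusted p = 0.0601 to 0.138). miR-217-5p (42.1 to 62.2 CPM in dorsal raphe, 4.24 to 28.7 CPM in amygdala; log2 fold change -1.88, SE 0.49) and miR-216a-5p of the same cluster (log2 fold change -1.53, SE 0.37) also fell, both known from exocrine pancreas. miR-194-5p, known from liver and gut, was at 558, 812, 1004 and 611 CPM in dorsal raphe and 72.4, 92.8, 194 and 203 CPM in amygdala (log2 fold change -2.40, SE 0.48, adjusted p = 0.00244). The groups did not overlap for miR-194-5p. With only the 5 libraries of over 3000000 counts, miR-194-5p (log2 fold change -2.0, adjusted p = 0.0612), miR-298-3p (-1.46, adjusted p = 0.0547) and miR-296-5p (-0.98, adjusted p = 0.242) did not pass.

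miR-532-3p and miR-362-5p of the Clcn5 gene span, a chloride transporter gene, fell with log2 fold changes of -1.53 and -1.26. The more abundant arm miR-532-5p (814 CPM, against 21.5 CPM for miR-532-3p) had -0.21 and did not pass. miR-362-3p (-1.73) fell too but lost its call without amygdala replicate 2 or dorsal raphe replicates 2 or 4 (adjusted p = 0.057 to 0.0679). Within the miR-181 list 2 of 10 tested fell (median -0.35), where 6.57% of all 639 fell. miR-181d-5p was at 889.6 to 1175 CPM in dorsal raphe and 434 to 604 CPM in amygdala (log2 fold change -1.03, SE 0.24), and miR-181c-3p (-1.0) lost its call without amygdala replicate 2 or dorsal raphe replicates 2 or 4 (adjusted p = 0.0746 to 0.0879). miR-181a-5p, the most abundant of them, had a log2 fold change of -0.50 and did not pass. miR-466c-3p of the Sfmbt2 gene span fell, with 12.5 to 20.3 CPM in dorsal raphe and 4.71 to 6.28 CPM in amygdala (log2 fold change -1.60, SE 0.37). None of the 6 called here passed with only the 5 deepest libraries, with adjusted p from 0.0601 for miR-466c-3p to 0.186 for miR-362-5p.

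The imprinted Dlk1-Dio3 region, a large miRNA cluster known for brain expression, had 89 tested members in the list, of which 4 rose and 7 fell, with a median of -0.26. Over all 639 miRNAs 6.57% rose and 6.57% fell, and the list's share of calls was close to the 13.1% of all. Of the 7 that fell, miR-758-3p was at 345, 448, 391 and 639.7 CPM in dorsal raphe and 77.2, 101, 204 and 195 CPM in amygdala (log2 fold change -1.65, SE 0.36, adjusted p = 0.0038) and kept its call without each library in turn. miR-136-5p (-1.24) lost its call without dorsal raphe replicates 2 or 4 (adjusted p = 0.0501 to 0.064). miR-411-5p (-0.93), the most abundant of the 7, did so without amygdala replicates 1 or 2 or dorsal raphe replicates 2 or 4 (adjusted p = 0.0802 to 0.139), and miR-379-3p (-1.73) did so without amygdala replicates 1 or 2 or dorsal raphe replicates 2 or 4 (adjusted p = 0.0585 to 0.0943). miR-134-5p (-0.96) did so without amygdala replicates 2, 3 or 4 or dorsal raphe replicates 2, 3 or 4 (adjusted p = 0.0743 to 0.155), miR-300-5p (-1.04) did so without amygdala replicates 1 or 2 or dorsal raphe replicates 2, 3 or 4 (adjusted p = 0.0822 to 0.161), and miR-382-3p (-0.95) did so without amygdala replicates 1, 2 or 3 or dorsal raphe replicates 1, 2, 3 or 4 (adjusted p = 0.0608 to 0.108). Of the 7, 0 passed with only the 5 deepest libraries, with adjusted p from 0.0641 for miR-758-3p to 0.294 for miR-300-5p.

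Each of the remaining 8 that fell lost its call without at least 1 library, and none passed with only the 5 deepest libraries. miR-3547 of the Baiap3 gene span (-1.74) did so without dorsal raphe replicate 3 (adjusted p = 0.0789), and miR-702-3p of the Plod3 gene span (-1.38) did so without amygdala replicate 2 or dorsal raphe replicates 3 or 4 (adjusted p = 0.0731 to 0.0867). The lymphocyte miRNA miR-150-5p (689 to 993 CPM in dorsal raphe, 243 to 637 CPM in amygdala, -0.98) did so without amygdala replicates 1 or 2 or dorsal raphe replicates 2, 3 or 4 (adjusted p = 0.1 to 0.149), and in the microglia and leukocyte list it was the 1 of 8 tested that passed. miR-301b-3p (-1.38) did so without amygdala replicates 1 or 2 or dorsal raphe replicates 2, 3 or 4 (adjusted p = 0.0581 to 0.0868), and miR-598-3p (-1.0) did so without amygdala replicate 2 or dorsal raphe replicate 2 (adjusted p = 0.0556 to 0.0799). Both arms of miR-33 in the span of Srebf2, the gene of a regulator of cholesterol synthesis, fell. miR-33-5p (-1.22) lost its call without amygdala replicates 1, 2 or 3 or dorsal raphe replicates 2, 3 or 4 (adjusted p = 0.0812 to 0.187) and miR-33-3p (-1.10) did so without amygdala replicates 1, 2 or 3 or dorsal raphe replicates 2, 3 or 4 (adjusted p = 0.0737 to 0.158). miR-490-5p of the Chrm2 gene span (-1.15) was called with overlapping groups and lost its call without amygdala replicates 2, 3 or 4 or dorsal raphe replicates 1, 2 or 4 (adjusted p = 0.0812 to 0.114).

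**Figure D4:**
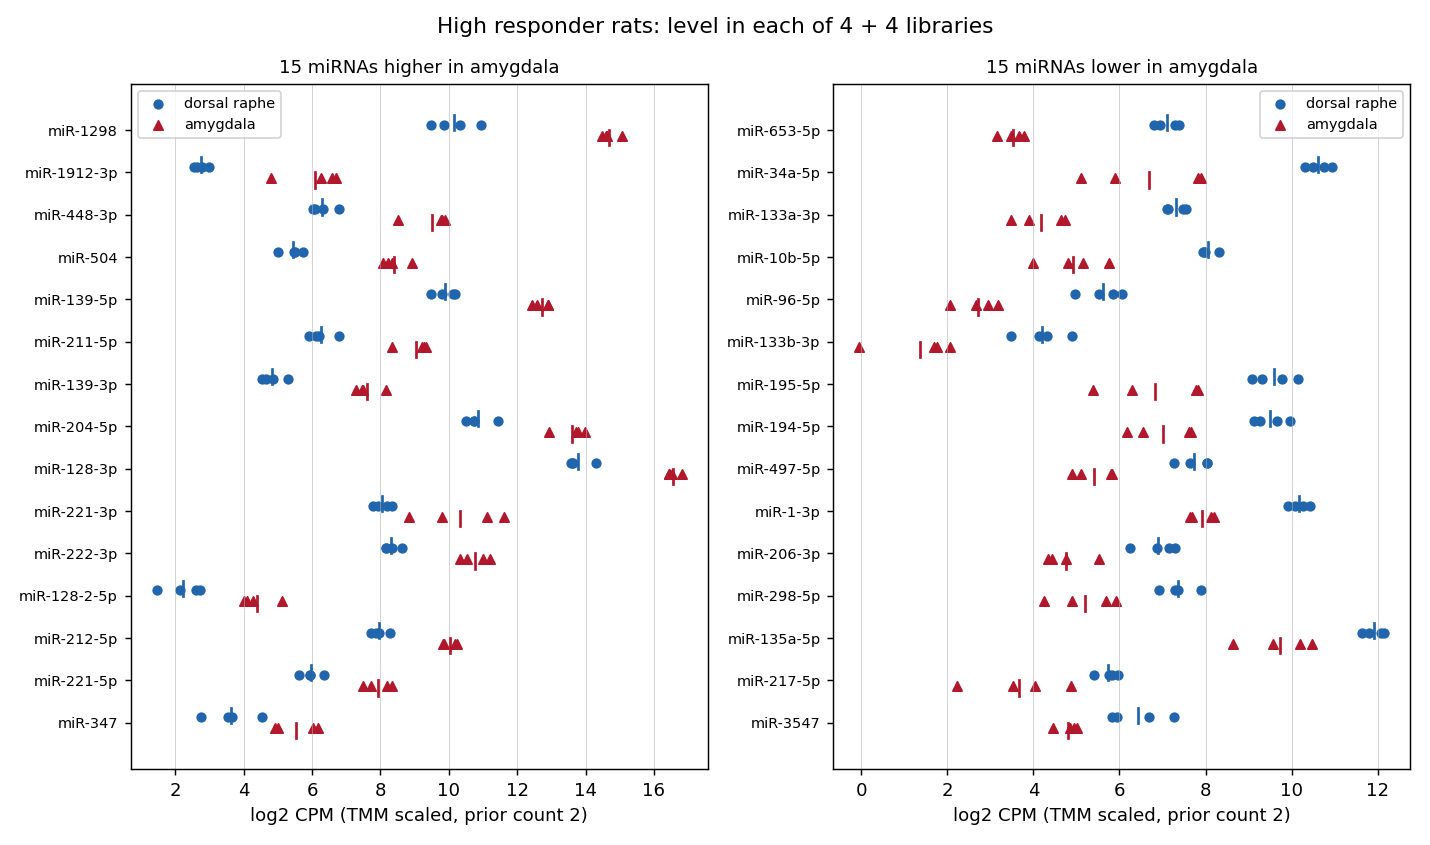
Level of 30 miRNAs in each of the 8 high responder libraries, as log2 CPM with a prior count of 2 (x axis), the 15 called with the largest rise on the left and the 15 with the largest fall on the right (y axis; mean of at least 10 CPM). Blue circles are dorsal raphe, red triangles amygdala and vertical bars the group means. Triangles and circles do not overlap in any of the 30, which were picked by a test of these same libraries.

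Several families had no call, where 13.1% of all 639 miRNAs passed. In lists this small a count of 0 or 1 does not set a family apart. In the let-7 list 0 of 18 tested passed in either direction (median -0.19), in the miR-30 list 0 of 11 (-0.07) and in the miR-29 list 0 of 7 (-0.43). The miR-99 and miR-100 list had 0 of 6 (0.62) and the miR-125 list 0 of 5 (0.01). In the miR-17-92 list 1 of 22 passed, miR-92b-5p above, with a median of 0.12. The medians of the miR-125 and miR-17-92 lists turned negative (-0.18 and -0.07) with library totals as scaling. The oligodendrocyte list (5 tested, median -0.23), the vascular list (7 tested, -0.60) and the red cell list (4 tested, 0.29) had 0 calls.

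Of 58 seeds shared by at least 2 tested miRNAs with a RefSeq sequence (144 miRNAs), 16 held a call and 8 held at least 2. In 7 of these 8 the calls had 1 direction: miR-128-1-5p with miR-128-2-5p, miR-204-5p with miR-211-5p and miR-221-3p with miR-222-3p rose, and miR-1-3p with miR-206-3p, miR-133a-3p with miR-133b-3p, miR-135a-5p with miR-135b-5p and miR-195-5p with miR-497-5p fell. The other was the seed of miR-34a-5p and miR-449a-5p. Several of the 7 pairs are near copies, whose separate levels are uncertain, or neighbours in a cluster. Their shared direction is therefore not made of independent measurements. The arms of a hairpin differ in sequence. Of 222 precursors with both arms tested, 137 had arms of the same sign (61.7%). Both arms passed in 9 precursors, 4 higher (miR-139, miR-204, miR-221, miR-222) and 5 lower (miR-298, miR-33, miR-362, miR-489, miR-653), and 0 had calls in opposite directions. Of the 48 with 1 arm called, the other arm had the same sign in 33 and the opposite sign in 15.

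By position in GRCr8, miRNA genes on 1 strand within 10 kb of each other formed 48 clusters with tested members of at least 2 genes, of which 18 held a call and 11 at least 2. Members with more than 1 place in the table were left out, and 30 of the 449 genes, which have no hairpin entry, were placed by their mature arms. Only miRNAs with a RefSeq entry were counted, 569 of the 639 tested and 70 of the 84 calls. Not counted for lack of an entry were miR-200a-3p, miR-200b-3p and miR-429, called higher, and miR-136-5p, called lower. The cluster of miR-200a with miR-200b and that of miR-493 with miR-136 therefore lack calls. Among the calls so counted, 2 of those 11 clusters had the higher direction alone, miR-221 with miR-222 and miR-132 with miR-212. The lower direction alone was found in 8, and the Dlk1-Dio3 cluster from miR-379 to miR-410 had 2 higher and 6 lower of 64 tested. Of 545 tested miRNAs with 1 place in RefSeq's table, 46.6% lay within the span of a protein-coding gene, against 15 of 30 such miRNAs that rose (50.0%) and 17 of 37 that fell (45.9%). The table gives gene spans alone, so intron and exon were not told apart.

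The same region difference in the low responder line was set beside these values. Of the 84 miRNAs called in high responders, 76 had the same sign in low responders (90.5%), against 453 of all 639 (70.9%). All 42 that fell and 34 of the 42 that rose did so. The log2 fold change of miR-1298 was 3.55 in low responders, that of miR-139-5p 2.64, that of miR-653-5p -3.81 and that of miR-34a-5p -2.79, all in the direction seen in high responders. Smaller values were those of miR-504, which was 0.86, miR-204-5p 0.82, miR-211-5p 0.56 and miR-7a-5p 0.10. miR-10b-5p was further apart in low responders, at -5.59.

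Those 8 with the opposite sign were miR-370-3p (-0.97), miR-347 (-1.09), miR-320-5p (-0.64), miR-22-3p (-0.51), miR-543-3p (-0.11), miR-378b (-0.09), miR-410-5p (-0.03) and miR-674-3p (-0.03). The difference between the lines was tested as an interaction in the same edgeR model, and 0 of 639 passed (0%), with 81 at an unadjusted p under 0.05. DESeq2 called 22 and limma-voom 0. The lowest adjusted p in edgeR was 0.0514, that of miR-370-3p.

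**Figure D5:**
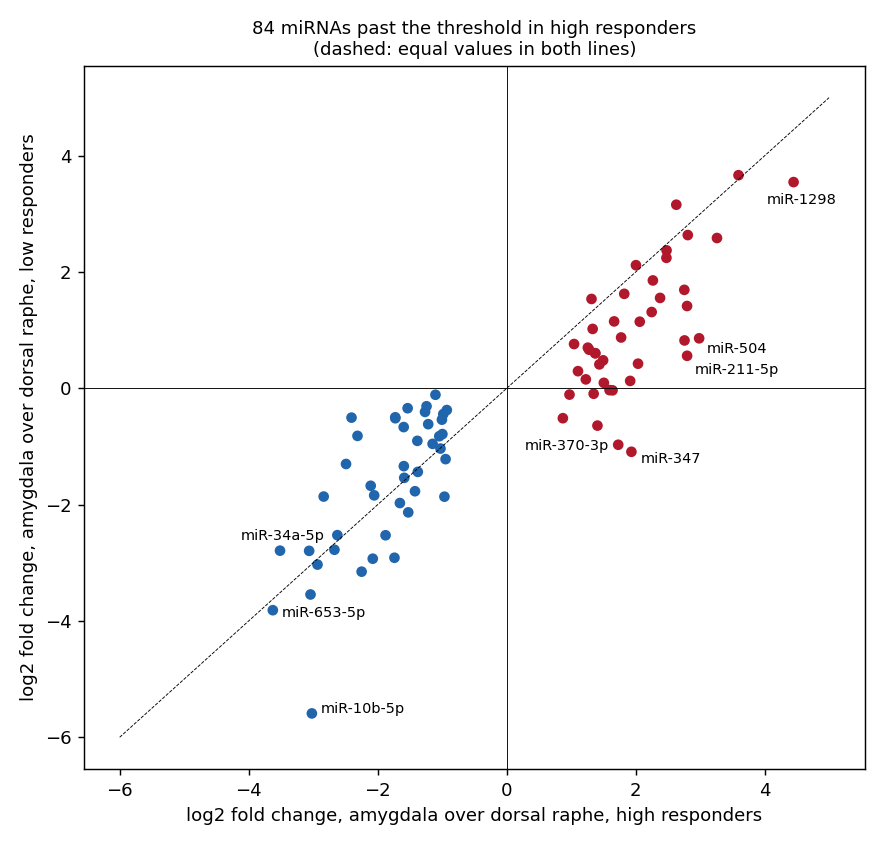
Log2 fold change of amygdala over dorsal raphe in low responders (y axis) against that in high responders (x axis) for the 84 miRNAs called in high responders, red where higher and blue where lower. The dashed line marks equal values; all 42 blue points lie below 0 on both axes and 8 red points, miR-370-3p and miR-347 among them, lie below 0 on the y axis.

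By share of counts, miR-9a-5p was the most abundant miRNA in both regions. It held 13.6% of the counts in dorsal raphe and 13.4% in amygdala, miR-26a-5p 5.42% and 4.3%, and miR-127-3p 4.14% and 2.93%; these 3 did not pass. miR-7a-5p held 1.67% and 4.27%, and miR-1298 0.133% and 2.65%. miR-99a-5p (3.5% and 4.66%) did not pass either (log2 fold change 0.56, adjusted p = 0.103). Nor did miR-181a-5p, miR-30d-5p, let-7f-5p and let-7i-5p, which complete the 10 most abundant with miR-128-3p, and whose log2 fold changes were -0.50, 0.27, 0.65 and -0.12.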

How the data were processed

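Per the labels' protocols, total RNA was extracted by miRNeasy kit and turned into size-selected Illumina small RNA libraries. The authors deposited raw read counts of 722 mature rat miRNAs for each library, which were used as deposited. Named in the submitters' processing notes are bedtools 2.14.2, Bowtie2 and cutadapt 1.3.1. Their settings, the build and annotation used and how reads fitting several miRNAs were assigned are not given in the sources here.

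edgeR's filterByExpr (minimum count 10, minimum total 15) kept 639 miRNAs. The 83 others held at most 0.0169% of a high responder library. The quasi-likelihood test of edgeR 4.0.16 (R 4.3.3) was fitted with TMM factors and a mean for each of the 4 groups over all 16 libraries, with Benjamini-Hochberg adjustment over 639 and a threshold of 0.05. The common biological coefficient of variation was 0.426. Log2 CPM used a prior count of 2. Alternatives used limma 3.58.1 (voom), DESeq2 1.42.0, other scalings and filters, the 8 high responder libraries alone and the omission of libraries. The scripts were tested on simulated counts.

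The miRNAs named were, in each direction, the 15 called with the largest log2 fold change and a mean of 10 CPM or more, up to 3 of each list by lowest p and the 10 most abundant; list members without a call are given mostly as counts and medians. The other calls, some list members without a call, family members of the same seed or hairpin and opposite arms were added after their values were seen. The comparison, its members and the lists were chosen with earlier results of these data known. Some lists, such as those of the Htr2c, Pde2a and Calcr genes, were grouped after such results, so list counts are descriptions. They are to be read beside the 6.57% of all 639 miRNAs that rose and the 6.57% that fell. Sequences and positions come from RefSeq (GRCr8).

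Same-numbered amygdala and dorsal raphe libraries had deviations from the group means that correlated over miRNAs at 0.67, -0.27, 0.35 and 0.53, not all above 0.1, so the numbers were not taken to pair them.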

Additional observations from a re-analysis of the deposited data

Results flagged for a closer look

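In each group of 4 libraries, the highest or lowest value was set against the nearest other one with Dixon's criterion. This covered 110 of the miRNAs named and both regions (220 groups). The criterion marked 14 values, where chance alone marks about 1 in 20 groups, or 11 here, so single marks carry little weight.

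In amygdala, replicate 1 stood apart at 365 CPM for miR-448-3p, 325 CPM for miR-211-5p and 1398 CPM for miR-344a-3p, below the other 3 in each, and at 43592 CPM for miR-127-3p, above them. Replicate 4 stood apart as the lowest for miR-7a-5p, at 38226 CPM. In dorsal raphe, replicate 3 was the highest for miR-10b-5p (316 CPM), miR-128-3p (20160 CPM) and miR-653-3p (15.8 CPM) and the lowest for miR-362-3p (20.6 CPM). Replicate 1 was the lowest for miR-150-5p (689 CPM), miR-674-3p (111 CPM) and miR-764-5p (4.90 CPM), replicate 2 the highest for miR-9a-5p (148666 CPM) and replicate 4 the lowest for let-7i-5p (20755 CPM).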

How the results depend on the processing

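Counts of calls depended on the processing more than directions did: 0 of the 84 calls changed sign in any of the 19 alternatives, and 34 (22 higher, 12 lower) were kept in every alternative that tested them. DESeq2 called 72 higher and 64 lower, and 22 for the interaction. Library totals as scaling gave 71 lower and the 8 high responder libraries alone gave 73 higher. Without a filter on low counts 1 interaction passed. Leaving out low responder dorsal raphe replicate 4 gave 65 lower. Each of the 8 high responder libraries was also left out in turn, and no other low responder library was. These omissions, that of low responder dorsal raphe replicate 4 included, gave 34 to 72 higher and 27 to 65 lower (27 to 56 for the 8 high responder libraries). The interaction had 0 to 1, the 1 without high responder amygdala replicate 4. Of the alternatives added after the data were seen, the one without amygdala replicates 1 and 4 gave 24 lower and that with only the 5 libraries of over 3000000 counts 19. The cause was not tested.

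With the replicate number as a replicate block in the 8 libraries, 86 rose and 63 fell, and 82 of the 84 calls were kept. The numbers share no stated rat or batch. Amygdala replicates 1 and 2 both correlated best with dorsal raphe replicate 1.

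Named miRNAs without a call and near 0 changed sign. miR-9a-5p was at -0.021 with library totals. With a filter of 10 CPM let-7i-5p was at 0.17, miR-127-3p at 0.0013 and miR-26a-5p at 0.096. let-7i-5p was at 0.037 in the 8 libraries alone and 0.034 with the block. Without each library in turn miR-26a-5p ran from -0.31 to 0.11 and miR-375-3p from -0.058 to 0.37. miR-375-3p was at -0.18 without amygdala replicates 1 and 4 and at -0.37 with the 5 deep libraries, where miR-26a-5p was at 0.22.

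Of the 232 miRNAs under 10 CPM, 4.31% passed, and the part of depth in this was not tested.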
